A study of Drosophila melanogaster with 2 samples.

Results

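Transfer RNA (tRNA) genes were examined for binding of cato in the Drosophila melanogaster embryo. The members are the genes that the Ensembl annotation of the dm6 genome gives the biotype tRNA on the nuclear chromosomes. They number 290 of 24166 nuclear genes; a further 22 tRNA genes of the mitochondrial genome were left out, of 312 in the annotation. A gene was counted as having a summit when the highest point of a peak lay inside it or within 500 bp of either end.

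Chromatin immunoprecipitation sequencing was done on whole embryos of both sexes, 0 to 16 h old, from a transgenic line that stably expresses cato with green fluorescent protein (eGFP) at its C-terminus, with GFP antibody for the precipitation. The single condition has 2 biological replicates, numbered 1 and 3, and no library from embryos without the tag was analysed here. The fusion protein is present beside whatever cato the line makes from its own gene, which the labels do not describe, and the precipitated material mixes all cells of the embryo. Cato, a relative of atonal with a basic helix-loop-helix domain, is known from developing sensory neurons. Proteins of this class bind the E-box CANNTG.

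tRNA genes are transcribed by RNA polymerase III from promoter elements that lie inside the gene. The factor TFIIIC binds these elements, the A box near the start and the B box towards the end, and places TFIIIB upstream, which recruits the polymerase. tRNA genes are active in nearly all cells, stand in clusters and exist in many identical copies, and reads from identical copies cannot be assigned to 1 of them by the gene's own sequence.

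The 4 tRNA genes printed next are shown because the results turn on them: the gene with the strongest reproducible peak nearby, the gene with the strongest replicate 3 summit inside it, and 1 gene each of valine and arginine, the isotypes (groups of genes for 1 amino acid) with the lowest replicate 3 shares among those of at least 10 genes. Sequences are from the RefSeq copy of dm6, read 5′ to 3′ along the transcribed strand, and capitals mark each CANNTG.
tRNA:Tyr-GTA-1-8: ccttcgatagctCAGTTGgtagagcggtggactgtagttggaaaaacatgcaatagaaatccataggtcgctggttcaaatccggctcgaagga
tRNA:Ala-AGC-2-2: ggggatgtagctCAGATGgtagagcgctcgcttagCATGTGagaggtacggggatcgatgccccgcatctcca
tRNA:Val-CAC-2-1: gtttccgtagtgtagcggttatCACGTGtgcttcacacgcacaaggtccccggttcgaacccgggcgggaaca
tRNA:Arg-TCG-2-1: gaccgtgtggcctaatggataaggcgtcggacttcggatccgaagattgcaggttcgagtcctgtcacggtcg

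These genes lie at chr3R:8669081-8669174 (minus strand, with an intron, in introns of CG8036 and of pink, symbol p), chr3R:17619738-17619810 (plus), chr3R:7451297-7451369 (plus) and chrX:14014814-14014886 (plus), in the order printed. The annotation places the last 3 outside protein-coding genes. The tyrosine and alanine genes carry an E-box from base 13, and the alanine gene carries another from base 36. The E-box of the valine gene begins at base 23, and the arginine gene has none. Of the genes with the same mature sequence, a replicate 3 summit was found at 8 of 9 for the tyrosine gene, 11 of 11 for the alanine gene, 2 of 6 for the valine gene and 2 of 4 for the arginine gene. The printed arginine gene itself had a summit in both replicates, at rank 10713 in replicate 1 and 19451 in replicate 3. The printed valine gene had none in either.

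The genes were 71 to 186 bp long with a median of 73.0 bp, and 16 had an intron. They lay on 2L (41 genes), 2R (98), 3L (48), 3R (79) and X (24). In all, 214 genes stood within 5000 bp of another tRNA gene and formed 68 clusters, while 76 stood alone. The 290 genes held 84 distinct mature sequences, and 252 genes shared theirs with at least 1 other gene. A protein-coding start site lay within 500 bp of 33 genes, and 134 genes lay inside protein-coding genes.

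The core of the B box, searched as GTTCGANNC on both strands, was found in 160 of 290 genes (55.2%) and in 0.802% of shifted positions. With the looser GTTCNANNC, chosen after the first count was seen, it was found in 271 genes (93.4%) and in 2.34% of shifted positions. It began at bases 47 to 66 of the mature sequence. The alanine gene tRNA:Ala-AGC-2-2 has no match to it. CANNTG was found in 93 of 290 genes (32.1%) and in 31.7% of shifted positions, so the letters of an E-box were about as frequent in tRNA genes as beside them. No E-box overlapped a B box core of either form. Of 108 E-boxes in tRNA genes, 57 began at base 13, in the region where the A box lies.

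Few tRNA genes lay at the binding sites that both replicates shared. The authors' list of peaks that passed the irreproducible discovery rate (IDR) procedure, which keeps peaks ranked alike in both replicates, holds 2746 peaks. An IDR summit was found at 10 of 290 tRNA genes (3.45%). For comparison, the positions of the genes were moved along the chromosome by 10 to 100 kb in either direction in steps of 10 kb, giving 20 shifts, and positions within 500 bp of a tRNA gene were dropped. Of these shifted positions 2.72% had an IDR summit, with a range of 1.04% to 4.51% over the 20 shifts, so the tRNA genes lay within the range. Of the 5′ ends of all nuclear genes 7.79% had one, against 9 tRNA 5′ ends (3.10%) and 12.2% of protein-coding 5′ ends.

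The 10 genes shared 8 IDR peaks, and none of the 8 summits lay inside the tRNA gene. Signal values, which are the authors' and on the scale of their peak caller, ran from 70.8 to 263.6 with a median of 100.5 near tRNA genes. Over all IDR peaks they ran from 68.9 to 1099.8 with a median of 106.3.

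tRNA:Tyr-GTA-1-8, a tyrosine tRNA gene in a cluster of 3, had the strongest of the 8 peaks, at chr3R:8669296-8669439. Its signal value was 263.6, rank 210 of the IDR list, and the best peak there ranked 355 in replicate 1 and 168 in replicate 3. The summit lay 209 bp upstream of the tRNA gene and 235 bp from a start site of CG8036. The next peak, at chr2R:18639087-18639490, stood beside tRNA:Trp-CCA-2-2 and tRNA:Gly-GCC-1-9. It had a signal value of 118.9 and its summit was 268 bp upstream of the tryptophan tRNA gene and 19 bp from a start site of CG30122. Beside the histidine gene tRNA:His-GTG-1-3 the peak at chr2R:12334983-12335386 had a signal value of 105.6, with its summit 131 bp from a start site of CG8490.

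The glutamine gene tRNA:Gln-TTG-2-1 lies in an intron of CG12535 on X. Its peak, at chrX:3427512-3427915, had a signal value of 103.4, ranked 1898 in replicate 1 and 1249 in replicate 3, and its summit was 191 bp upstream of the tRNA gene and 8093 bp from the nearest protein-coding start site. The summits of the other 7 peaks lay 19 to 448 bp from a protein-coding start. These included the peak at the aspartate genes tRNA:Asp-GTC-1-5 and tRNA:Asp-GTC-1-4, 96 bp from a start of Sema1a (a semaphorin), and that at the phenylalanine gene tRNA:Phe-GAA-1-2, 33 bp from a start of RpL17 (a ribosomal protein). The peaks at tRNA:Val-CAC-2-5 and tRNA:Leu-TAA-2-1 had signal values of 91.5 and 70.8 and lay 448 bp and 360 bp from starts of Naam and CG13605. How many of all IDR peaks lie this close to a protein-coding start was not counted here, so the count of 7 has no background.

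Counted by gene, 7 of the 33 tRNA genes with a protein-coding start site within 500 bp had an IDR summit (21.2%, against 4.11% of their shifted positions, range over shifts 0% to 12.1%). Of the 257 with no such start site, 3 did (1.17%, against 2.54%, range over shifts 0.391% to 5.08%). The shifted positions of the 33 genes need not have a start site nearby, so 4.11% is not a like background. Of protein-coding 5′ ends 12.2% had an IDR summit. The 7 genes include tRNA:Trp-CCA-2-2 and tRNA:Gly-GCC-1-9, which share a peak. Among genes in clusters 6 of 214 had an IDR summit (2.80%, shifted 2.65%), and among single genes 4 of 76 (5.26%, shifted 2.91%). Both values lay within the range over shifts, which reached 5.19% for clustered and 9.21% for single genes. On 3L no tRNA gene of 48 had an IDR summit (shifted 4.07%, range 0% to 12.5%), and on X 2 of 24 had one (8.33%, shifted 1.92%, range 0% to 8.70%), both within the range.

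The separate replicate lists were ranked by signal value and cut to the same number of peaks. Among the 2746 strongest peaks of replicate 1, summits were found at 9 tRNA genes (3.10%), with 3.02% of shifted positions and 7.97% of all gene 5′ ends. Among those of replicate 3, summits were found at 11 tRNA genes (3.79%), with 2.53% and 7.56%. At 9 genes the best peak stood at rank 2746 or better in both.

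**Figure D1:**
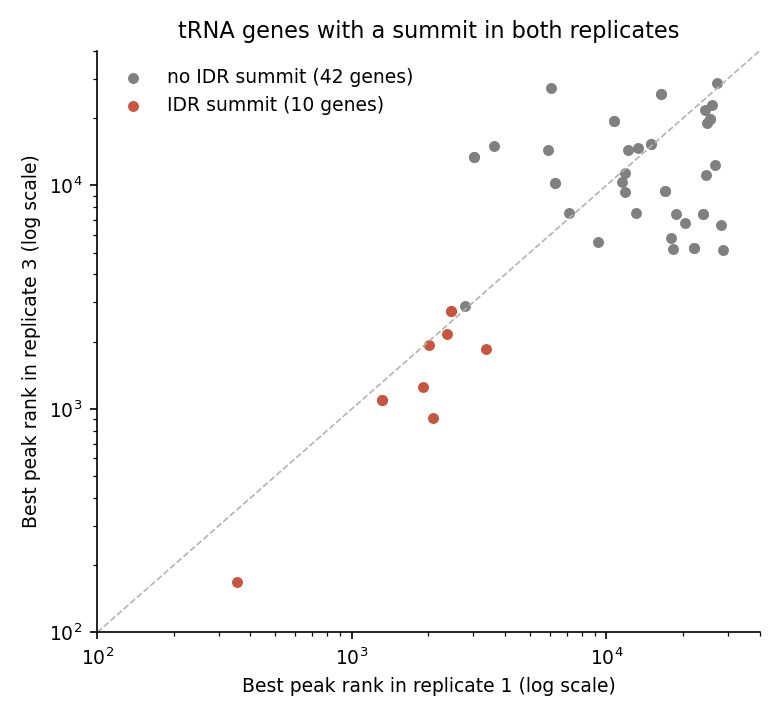
Best peak rank in replicate 1 (x axis, log scale) against replicate 3 (y axis, log scale) for the 52 tRNA genes with a summit in both lists; rank 1 is the strongest peak and the dashed line marks equal ranks. The 10 genes with an IDR summit fall at 8 points, because neighbouring genes share a peak, and lie at ranks 355 to 3360 in replicate 1 and 168 to 2735 in replicate 3.

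The full replicate lists hold 30000 peaks each, weak ones included, and here the replicates parted. In replicate 3 a summit was found at 152 of 290 tRNA genes (52.4%). The shifted positions had 25.4%, with a range of 20.8% to 31.2% over the 20 shifts, and the 5′ ends of all genes had 35.6%. In replicate 1 a summit was found at 74 tRNA genes (25.5%), against 25.0% of shifted positions (range 20.8% to 32.3%) and 30.7% of all gene 5′ ends. The pooled list of 30000 peaks gave 89 genes (30.7%), against 25.9% and 29.7%. The share in replicate 3 was 2.07 times that at shifted positions and above each of the 20 shifts, while those of replicate 1 and of the pool lay within theirs. The share of each replicate comes from 1 library, so the difference between the replicates has no replicate check, and its cause was not tested.

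From 5000 peaks on, the gap in replicate 3, in percentage points, widened with the number of peaks taken. The ratio of the tRNA share to the shifted share was 1.20 with 5000 peaks, below that with 2746, and 1.90 with 10000, 2.24 with 25000 and 2.07 with 30000, so it did not rise throughout. With the 5000 strongest peaks 5.86% of tRNA genes had a summit, against 4.90% of shifted positions. With 10000 the values were 17.9% and 9.45%, and with 20000 they were 38.6% and 17.5%. Replicate 1 had 9.31% and 9.63% with 10000 peaks and 17.6% and 17.9% with 20000. Among genes with a summit, the median of the best rank was 13787.5 in replicate 1 and 13380.0 in replicate 3, so most of these summits belong to weak peaks.

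**Figure D2:**
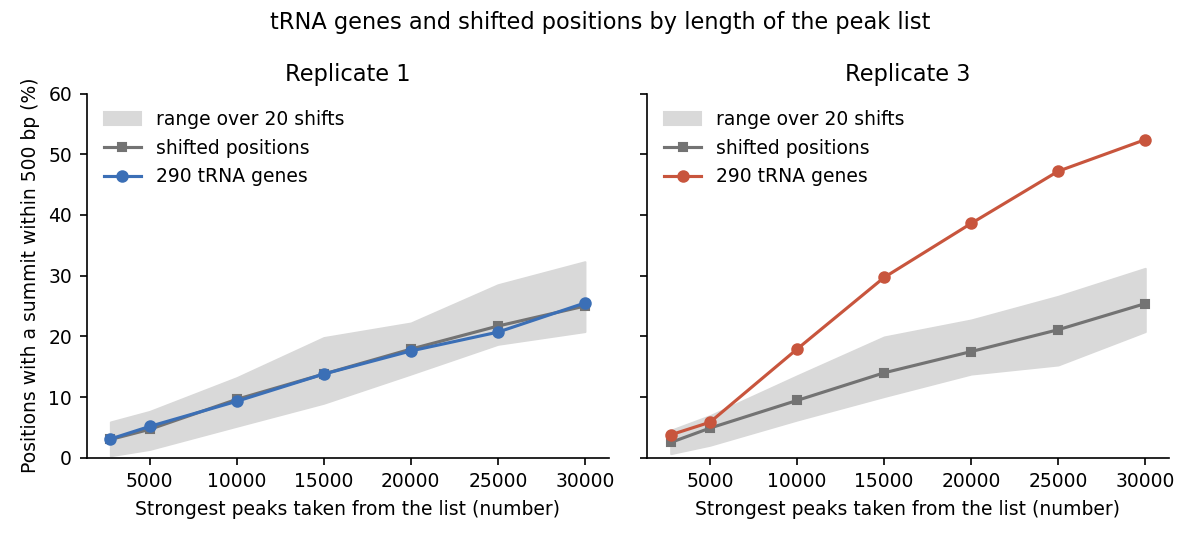
Share of the 290 tRNA genes (circles) and of shifted positions (squares) with a summit within 500 bp, in percent, against the number of strongest peaks taken, for replicate 1 (left) and replicate 3 (right); the grey band is the range over the 20 shifts. In replicate 1 the tRNA genes stay in the band throughout, and in replicate 3 they leave it from 10000 peaks on and reach 52.4% with 30000.

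A summit was found in both full lists at 52 genes, in replicate 1 only at 22, in replicate 3 only at 100 and in neither at 116. At 44 of the 52 the peaks of the replicates overlapped. The same overlaps were not counted at shifted positions or over all genes, so these counts have no background here. The glutamate gene tRNA:Glu-TTC-1-5 (chr2R:19727460-19727531) came closest to the IDR list without an IDR summit, at rank 2791 in replicate 1 and 2884 in replicate 3. The lysine gene tRNA:Lys-TTT-1-1, in an intron of the kinase gene Btk, ranked 7134 and 7529, and the glycine gene tRNA:Gly-TCC-2-2 ranked 9283 and 5579. The phenylalanine genes tRNA:Phe-GAA-1-4 and tRNA:Phe-GAA-1-5 shared a peak at ranks 6288 and 10234. For these genes the nearest protein-coding start was 4928 bp to 13384 bp away.

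Replicate 3 summits also lay closer to the genes. Of 135 replicate 3 summits near tRNA genes, 17 lay inside a gene (12.6%) and 53 inside or within 100 bp (39.3%). Of 64 replicate 1 summits, 1 lay inside (1.56%) and 9 inside or within 100 bp (14.1%). The pooled list had 71 summits near tRNA genes, with 8 inside (11.3%) and 23 inside or within 100 bp (32.4%). Counted by gene, 52 of 290 tRNA genes had a replicate 3 summit within 100 bp (17.9%), against 7.57% of shifted positions. In replicate 1 the values were 9 genes (3.10%) and 7.46%, so there summits right at tRNA genes were less frequent than at shifted positions. Summits inside the gene were found at 5.86% of genes in replicate 3 (shifted 2.16%) and at 0.345% in replicate 1 (shifted 2.08%).

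**Figure D3:**
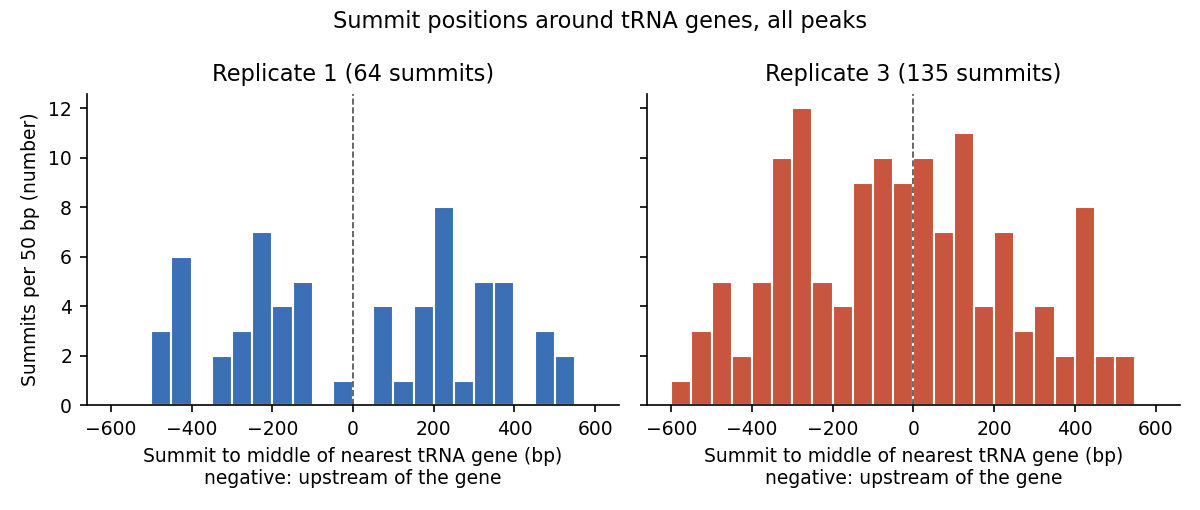
Distance from each summit to the middle of the nearest tRNA gene in bp (x axis, negative upstream in the direction of transcription) against the number of summits per 50 bp (y axis), for all peaks of replicate 1 (left, 64 summits) and replicate 3 (right, 135 summits). Replicate 3 has summits across the gene itself, where replicate 1 has 1.

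The strongest replicate 3 summit inside a tRNA gene was in tRNA:Ala-AGC-2-2, at rank 5821 with a signal value of 22.7, and lay 30 bp downstream of the gene's middle. The summits in tRNA:Ile-AAT-1-3, in an intron of ATP8A, and in tRNA:Ala-AGC-2-9, in an intron of CG14322, followed at ranks 6499 and 7490. The summit in the proline gene tRNA:Pro-CGG-2-3, which overlaps an exon of non-stop (symbol not) on the opposite strand, ranked 8813. Replicate 1 had no peak overlapping the replicate 3 peaks at either alanine gene or at the proline gene, and had one at rank 28644 at the isoleucine gene.

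Genes in clusters and single genes differed in replicate 3. Of clustered genes 126 of 214 had a replicate 3 summit (58.9%, shifted 26.3%, range 19.4% to 36.9%), and of single genes 26 of 76 (34.2%, shifted 22.7%, range 11.8% to 31.6%). In replicate 1 the values were 51 clustered genes (23.8%, shifted 25.2%) and 23 single genes (30.3%, shifted 24.5%). Without the genes near a protein-coding start site, replicate 3 had 57.4% of clustered genes (shifted 26.1%) and 27.5% of single genes (shifted 22.5%, range 11.6% to 33.3%), so the single genes then lay within the range. Clustered genes can share a summit. Merging genes at most 1000 bp apart gave 174 loci, at which replicate 3 had 5.79 summits per 10 kb, against 2.71 at shifted loci, and replicate 1 had 2.74 against 2.60. Loci of 1 gene had 4.42 summits per 10 kb in replicate 3 (shifted 2.50), and loci of more genes had 7.07 (shifted 2.92).

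**Figure D4:**
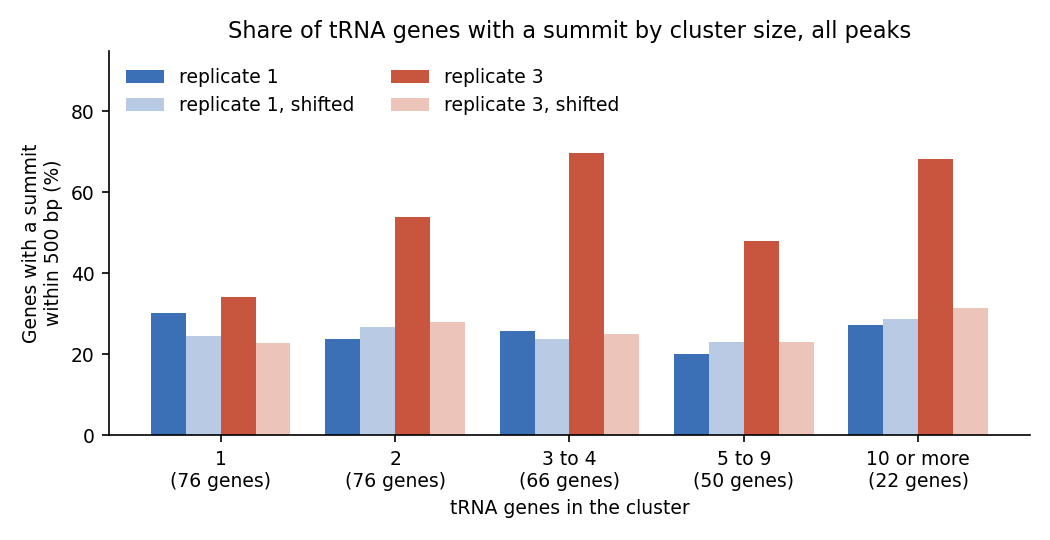
Share of tRNA genes with a summit within 500 bp, in percent, by the number of genes in the cluster, for replicate 1 (blue) and replicate 3 (red); pale bars are the shifted positions of the same genes. In replicate 3 the share was 34.2% for single genes, 53.9% in clusters of 2, 69.7% in clusters of 3 to 4, 48.0% in clusters of 5 to 9 and 68.2% in clusters of 10 or more, so it did not rise steadily with size.

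The clusters with the most genes hold 11 each. That on 2R (chr2R:6161535-6171759, with lysine, arginine, asparagine and isoleucine genes) had a summit at 7 genes in replicate 3 and at 3 in replicate 1. That on 3R (chr3R:17617761-17631750, with alanine, proline, threonine and valine genes) had one at 8 genes and at 3. Over both clusters the share was 68.2% in replicate 3 (shifted 31.5%) and 27.3% in replicate 1 (shifted 28.7%). The next largest were 3 clusters of 7 genes. The isoleucine and leucine cluster on 2R (chr2R:13430282-13432794) and the glutamate and initiator methionine cluster on 2R (chr2R:19725620-19728958) each had a replicate 3 summit at 5 genes and a replicate 1 summit at 1, while the arginine and serine cluster on X (chrX:14014814-14017284) had 2 and 2. None of these clusters had an IDR summit.

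The 15 isotypes of at least 10 genes spread widely in replicate 3. A summit was found at 9 of 10 tyrosine genes (90.0%, shifted 14.5%), 15 of 17 alanine genes (88.2%, shifted 22.6%) and 9 of 11 isoleucine genes (81.8%, shifted 27.4%). At the other end stood 7 of 26 arginine genes (26.9%, shifted 27.8%), 5 of 15 valine genes (33.3%, shifted 20.9%) and 8 of 22 leucine genes (36.4%, shifted 24.8%). The tyrosine, alanine and isoleucine shares lay above the highest of the 20 shifts (40.0%, 58.8% and 72.7%). The arginine, valine and leucine shares lay within their ranges over shifts. Among the smaller isotypes the share ran from 0 of 1 selenocysteine gene and 2 of 7 cysteine genes (28.6%) to 4 of 5 histidine genes (80.0%). In replicate 1 the alanine genes had a summit at 2 of 17 (11.8%, shifted 23.8%, range 0% to 64.7%) and the tyrosine genes at 4 of 10 (40.0%, shifted 18.5%). Both of these replicate 1 shares lay within their ranges over shifts. The alanine genes lie in 11 loci, 10 of which had a replicate 3 summit near an alanine gene, and they had 17 separate summits between them, so their count does not rest on a few shared peaks. The tyrosine genes lie in 6 loci, of which 5 had one. These isotypes were singled out after their values were seen, and genes of an isotype share sequence and often a cluster.

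**Figure D5:**
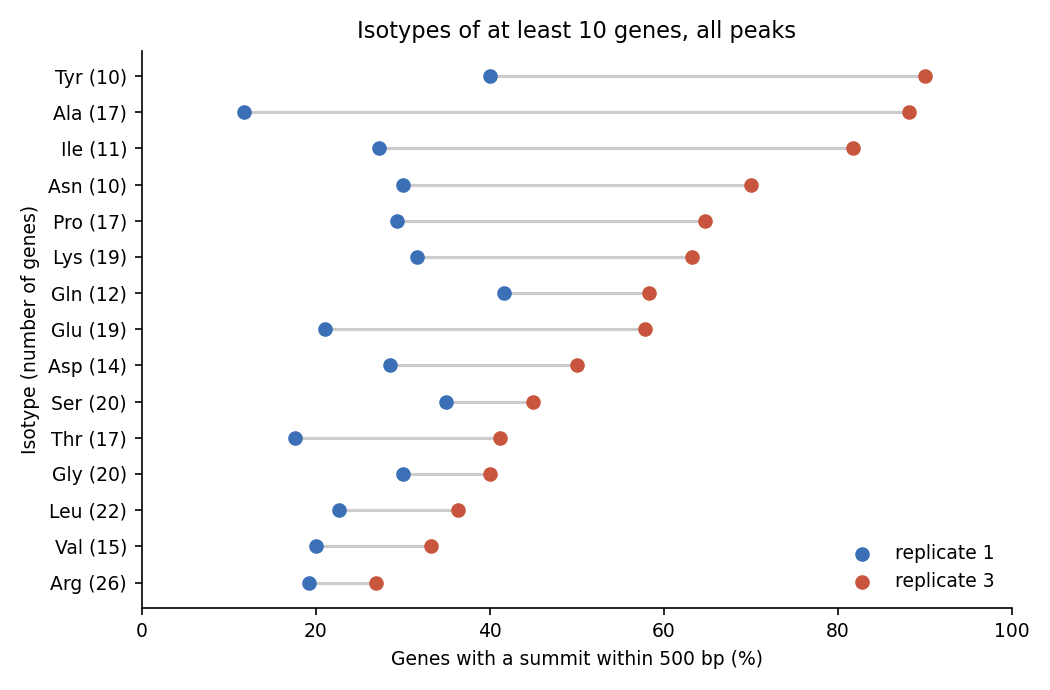
Share of genes with a summit within 500 bp, in percent, for the 15 isotypes of at least 10 genes (number of genes in brackets), in replicate 1 (blue) and replicate 3 (red), ordered by replicate 3. The replicate 3 share is the higher at each of the 15, from 26.9% for arginine to 90.0% for tyrosine, and the replicate 1 shares run from 11.8% to 41.7%.

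All tyrosine, alanine and isoleucine genes carry an E-box, and over all tRNA genes the replicate 3 share was higher for those with an E-box in the gene. A summit was found at 63 of the 93 genes with CANNTG (67.7%, shifted 24.6%) and at 89 of the 197 without (45.2%, shifted 25.7%). The difference of 22.6 percentage points was 9.5 with a window of 200 bp. Replicate 1 had 28.0% and 24.4%. Within clusters replicate 3 had 75.0% with and 51.4% without, and among single genes 48.0% and 27.5%. Without the tyrosine, alanine and isoleucine genes, 30 of 55 genes with CANNTG had a replicate 3 summit (54.5%), against the 45.2% of genes without. Isotype by isotype the order was mixed: 11 of 15 valine genes and all 6 elongator methionine genes carry an E-box, at replicate 3 shares of 33.3% each, while histidine (80.0%), proline (64.7%) and lysine genes (63.2%) carry none. The 93 genes hold only 25 mature sequences, and the asparagine genes (7 of 10), all with an E-box, have 1 sequence between them. The arms did not all show the same order: on 2L 2 of 6 genes with CANNTG had a replicate 3 summit (33.3%) and 19 of 35 without (54.3%), and on 3L the values were 37.5% and 40.0%.

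In both replicate lists E-boxes were less frequent at summits near tRNA genes than over all summits. The IDR list has only 8 summits near tRNA genes, too few to give an order. Within 50 bp of the summit CANNTG was found in 33.3% of the 135 replicate 3 summits near tRNA genes and in 39.0% of all replicate 3 summits. Replicate 1 had 28.1% and 40.0%, and near tRNA genes 3 of 8 IDR summits had it (37.5%), against 32.7% of all IDR summits. The GC content of these windows was 37.9% near tRNA genes and 39.2% over all summits in replicate 3.

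Other features of the genes went with replicate 3 summits too. Of the 16 genes with an intron 13 had one (81.2%, shifted 20.9%), against 139 of 274 without (50.7%, shifted 25.6%). The 10 tyrosine genes, 9 of which had a replicate 3 summit, are among the 16, so this contrast overlaps that by isotype. Genes with at least 1 identical copy had one at 55.2% (shifted 25.6%), and the 38 genes with a sequence of their own at 34.2% (shifted 24.0%). The order in replicate 1 was the other way, with 24.2% and 34.2%. How the authors treated reads that map to several copies is not given in the sources used here. Replicate 3 summits were found at 74 of 134 genes inside protein-coding genes and at 78 of 156 outside them. By arm, its share was 62.2% on 2R, 55.7% on 3R, 51.2% on 2L, 39.6% on 3L and 29.2% on X, with shifted values of 25.9%, 25.5%, 30.8%, 25.3% and 13.5%. On 2R, 3R and 2L the share lay above the highest shift (34.8%, 37.2% and 48.8%). On 3L it equalled the highest shift (39.6%), and on X it lay below the highest (34.8%).

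A higher share in replicate 3 was not seen at tRNA genes alone. By 5′ end, tRNA genes had a summit at 24.1% in replicate 1 and 51.4% in replicate 3, small nucleolar RNA genes at 12.3% and 31.6%, small nuclear RNA genes at 21.9% and 34.4%, and protein-coding genes at 39.6% and 46.7%. Transposable elements had 14.3% and 14.7%.

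Of 8 other genes listed as polymerase III genes, none had an IDR summit, 3 had a replicate 1 summit and 4 a replicate 3 summit. The shares over all gene 5′ ends were 7.79%, 30.7% and 35.6%. The list includes RNaseP:RNA, with a peak at rank 15041 in replicate 1, and which polymerase transcribes each gene was not checked here. The 7SK gene is not analysed here. Some of these peaks were also counted at tRNA genes. The replicate 1 peak at snRNA:U6:96Aa (rank 19202) was that at tRNA:Asp-GTC-1-11. The replicate 3 peak at 7SLRNA:CR42652 (rank 19056) was that at tRNA:Lys-TTT-2-1. The spliceosomal RNA genes snRNA:U6:96Ab and snRNA:U6:96Ac shared a replicate 3 peak at rank 2370 and had none in replicate 1. The gene of the RNA subunit of RNase MRP, RNaseMRP:RNA, had a summit at rank 10839 in replicate 1 and 4827 in replicate 3. None of 96 annotated 5S ribosomal RNA genes, which stand in a tandem array, had a summit in the IDR list or in the replicate lists. They are not separate observations. The treatment of reads that map to several copies is not known here, so a missing peak need not mean missing binding. Among 14 protein-coding genes of the polymerase III machinery, 3 had an IDR summit within 500 bp of a start site, 8 a replicate 1 summit and 10 a replicate 3 summit. Over all protein-coding genes, counted at a single 5′ end each, the shares were 12.2%, 39.6% and 46.7%. The rules differ, because the machinery genes were counted at any of their start sites, which gives more windows. Those with an IDR summit were Bdp1 (signal value 401.8) and Brf (217.2), which encode subunits of TFIIIB, and Polr3E (182.0), which encodes a polymerase subunit.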

How the data were processed

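Signal values, and summit offsets in bp, come from the dm6 peak lists the authors deposited: 1 list per replicate, a pooled list and an IDR list, which per the labels' file descriptions derives from these. The sources used here name no peak caller, aligner, read depth or treatment of multiply mapping reads, so depth is unknown and values carry no counting error. The dm3 lists and signal tracks were not used here. Sonicated fragments were 200 to 800 bp long, per the labels. Peaks were ranked by signal value within each list. All peaks and genes lay within the arms of the RefSeq dm6 sequence, and genes came from Ensembl release 115 (BDGP 6.54). Counts were made with Python 3.11.15 and plots with matplotlib 3.10.9, and the counting was tested on simulated data. Shifted positions are fixed and serve as description, with no test. Named genes are the tRNA gene nearest to each IDR peak (8 existed for a limit of 10), the largest clusters and the 5 genes best ranked in both replicates without an IDR summit; genes with a replicate 3 summit inside and the isotypes were named after their values were seen. In the list of polymerase III machinery 1 gene is not reported here. The members, lists and windows were chosen with earlier results of these data known. Alternatives were the window, the overlap rule, stronger peaks, single replicates, the pooled list, the cluster gap, the shifts and leaving out genes near protein-coding starts.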

Additional observations from a re-analysis of the deposited data

How the results depend on the processing

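The number of tRNA genes with an IDR summit was 10, and it fell to 3 with a window of 200 bp, with any overlap of peak and gene, with the stronger 50% of IDR peaks and without genes near a protein-coding start site, and rose to 19 with a window of 1000 bp. Single replicates gave 9 to 11 genes. For clustered genes (2.80%) the share was 0.467%, 6.07%, 0.467%, 1.40%, 5.14% and 0.532% with the 200 bp window, the 1000 bp window, any overlap, the stronger peaks, the pooled list and without genes near a start, 3.24% with a cluster gap of 1000 bp, and 2.80% to 3.27% from single replicates. For single genes (5.26%) the share was 2.63%, 7.89%, 2.63%, 0%, 3.95% and 2.90% in the same order, 3.81% and 6.25% with cluster gaps of 1000 and 10000 bp, and 3.95% to 5.26% from single replicates. For shifted positions (2.72%) the share was 1.36%, 5.02%, 1.24% and 1.38% with the 200 bp window, the 1000 bp window, any overlap and the stronger peaks, and 2.25% with shifts of 110 to 200 kb. The counts in the strongest peaks rose from 9 to 27 and 74 in replicate 1, and from 11 to 52 and 152 in replicate 3, with 10000 and 30000 peaks. The median IDR signal value near tRNA genes was 191.3 among the stronger peaks and 97.5 without genes near a start. Wider windows, longer lists and fewer peaks change these counts by their construction. No summit lay inside a tRNA gene with the stronger IDR peaks, without genes near a start, or among the 2746 strongest peaks of either replicate. The pooled list had a summit inside tRNA:Phe-GAA-1-4 at rank 2675, among its 2746 strongest peaks.

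For the full lists, alternatives were chosen after seeing the data. The ratio of tRNA genes to shifted positions in replicate 3 (2.07) was 1.77 to 2.26 over windows, overlap, merged loci, farther shifts, no genes near starts and no 2R, and in replicate 1 (1.02) 0.809 to 1.12. The share of clustered minus that of single genes in replicate 3 (24.7 percentage points) was 16.5 to 29.9. In replicate 1 it was -6.4 points and turned to 1.2 with a cluster gap of 1000 bp and 0.2 with a 200 bp window; the cause was not tested. The share of genes with an E-box minus that of genes without in replicate 3 (22.6 points) was 9.4 without alanine, tyrosine and isoleucine genes and 9.5 with a 200 bp window. No paired analysis was possible because there is 1 condition and no test. The unknown depth of each library limits every comparison between the replicates.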
